A study of Homo sapiens with 3 samples.

Results

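The clustered protocadherin genes lie side by side on chromosome 5 in 3 arrays, PCDHA, PCDHB and PCDHG. Peaks of 2 lists were taken as members when they overlapped the hg19 interval chr5:140165000-140892000 by at least 1 bp. The arrays were set at chr5:140165000-140392000 (PCDHA), chr5:140430000-140627000 (PCDHB) and chr5:140710000-140892000 (PCDHG). Of the 17089 peaks called for wild-type Idax, 1 was a member, and it lay outside all 3 arrays. Of the 38 peaks called for a DNA-binding mutant of Idax, 0 were members. The comparison of the arrays in spacing, width and score of peaks that the choice of this locus foresaw therefore has no values. What remains to describe is the near absence of listed peaks, which by length is common in the list. Of windows as long as the region, 40.4% held at most 1 wild-type peak. Of windows as long as an array, 51.2% (PCDHA), 54.4% (PCDHB) and 55.9% (PCDHG) held none.

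The peaks come from chromatin immunoprecipitation and sequencing in stable lines of HEK293T, cells derived from human embryonic kidney that express the large T antigen of SV40. They were made by transfection with Myc-tagged wild-type Idax (Myc-Idax), with its Myc-tagged DNA-binding mutant (Myc-IdaxDBM) or with an empty vector, and the same anti-c-Myc agarose gel was used in all 3. The design text gives 2 replicates per condition, each condition with a tagged protein had 1 peak list called over the empty-vector cells, and the empty-vector reads were not analysed here. The sources used here do not say whether a line was 1 clone, the number of reads behind a peak is unknown, and peak lists hold no expression values against which to check the cell line. No value below has a replicate error, and no test between conditions was possible.

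Clustered protocadherins are cell-surface proteins of the cadherin superfamily, best known in neurons, where each cell shows its own combination of them and uses it to tell its own branches from those of other cells. In PCDHA and PCDHG each variable exon has a promoter of its own and is spliced to constant exons shared by the array, whereas each PCDHB gene stands alone without constant exons. The last genes of PCDHA and PCDHG are called C-type and differ in sequence and use from the other variable exons. Idax, also named CXXC4, carries a CXXC-type zinc finger, which recognises CpG without methylation, so the CG letters of these promoters are of interest here.

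The promoters with the fewest and the most CG in each array are shown to give the range of such letters at the starts of these genes, with every CG in capitals. Each window runs from 250 bases before to 50 bases after an annotated start, is written 5′ to 3′ on the strand of the gene, and comes from RefSeq on build GRCh38.p14. These positions cannot be set beside the hg19 positions of the peaks. They are PCDHA2 at chr5:140794602-140794901 (plus strand), PCDHAC1 at chr5:140926049-140926348 (plus strand), PCDHB9 at chr5:141186911-141187210 (plus strand), PCDHB3 at chr5:141100223-141100522 (plus strand), PCDHGA4 at chr5:141354771-141355070 (plus strand) and PCDHGB6 at chr5:141407953-141408252 (plus strand). TAF7 at chr5:141320735-141321034 (minus strand) is added because the gene order of the table places it between PCDHB and PCDHG. SLC25A2 also stands there, but no promoter window was matched to its symbol. In PCDHB another window had as many CG as PCDHB3 and another as few as PCDHB9, and the first in the order of the gene list is shown.
PCDHA2: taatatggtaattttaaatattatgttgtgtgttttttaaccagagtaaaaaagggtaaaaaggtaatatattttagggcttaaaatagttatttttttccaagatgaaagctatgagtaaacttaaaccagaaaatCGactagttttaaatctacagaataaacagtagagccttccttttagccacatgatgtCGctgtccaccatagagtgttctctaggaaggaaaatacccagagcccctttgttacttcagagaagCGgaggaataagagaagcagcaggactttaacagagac
PCDHAC1: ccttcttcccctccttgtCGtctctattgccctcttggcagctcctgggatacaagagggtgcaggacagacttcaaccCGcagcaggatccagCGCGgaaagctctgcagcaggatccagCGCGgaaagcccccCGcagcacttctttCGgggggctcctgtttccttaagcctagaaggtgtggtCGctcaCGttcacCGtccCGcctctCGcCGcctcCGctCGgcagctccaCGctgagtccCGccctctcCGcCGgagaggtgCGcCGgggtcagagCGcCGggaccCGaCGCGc
PCDHB9: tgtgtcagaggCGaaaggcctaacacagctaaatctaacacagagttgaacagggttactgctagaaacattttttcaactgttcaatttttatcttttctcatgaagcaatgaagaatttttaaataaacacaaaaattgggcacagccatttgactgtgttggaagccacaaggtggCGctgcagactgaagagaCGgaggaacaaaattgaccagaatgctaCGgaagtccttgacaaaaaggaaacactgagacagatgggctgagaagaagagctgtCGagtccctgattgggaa
PCDHB3: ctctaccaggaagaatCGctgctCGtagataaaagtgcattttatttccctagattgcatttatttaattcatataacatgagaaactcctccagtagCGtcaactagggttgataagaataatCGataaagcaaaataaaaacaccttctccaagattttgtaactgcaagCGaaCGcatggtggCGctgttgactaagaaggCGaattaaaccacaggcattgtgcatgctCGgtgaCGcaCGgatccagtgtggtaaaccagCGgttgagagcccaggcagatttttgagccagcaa
PCDHGA4: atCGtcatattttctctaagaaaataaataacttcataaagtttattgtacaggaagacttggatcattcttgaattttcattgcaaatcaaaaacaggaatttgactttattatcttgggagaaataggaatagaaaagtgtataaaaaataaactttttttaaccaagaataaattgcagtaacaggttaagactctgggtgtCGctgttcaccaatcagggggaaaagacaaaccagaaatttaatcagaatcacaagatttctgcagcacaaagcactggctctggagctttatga
PCDHGB6: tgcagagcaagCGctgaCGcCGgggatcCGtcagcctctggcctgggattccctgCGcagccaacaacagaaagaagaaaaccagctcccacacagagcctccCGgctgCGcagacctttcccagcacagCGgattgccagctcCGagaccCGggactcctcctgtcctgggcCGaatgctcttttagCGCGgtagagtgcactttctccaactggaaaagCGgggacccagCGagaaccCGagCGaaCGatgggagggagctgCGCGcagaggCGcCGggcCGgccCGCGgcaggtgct
TAF7: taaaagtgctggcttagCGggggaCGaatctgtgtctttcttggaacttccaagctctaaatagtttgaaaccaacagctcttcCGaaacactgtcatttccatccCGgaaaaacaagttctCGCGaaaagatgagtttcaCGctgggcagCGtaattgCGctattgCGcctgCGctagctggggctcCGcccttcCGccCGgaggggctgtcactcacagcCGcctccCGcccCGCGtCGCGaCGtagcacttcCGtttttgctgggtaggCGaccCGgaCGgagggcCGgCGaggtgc

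These windows hold 3 CG in PCDHA2 and 27 in PCDHAC1, 5 in PCDHB9 and 12 in PCDHB3, 2 in PCDHGA4 and 25 in the second of the 2 windows of PCDHGB6. The window of TAF7, which encodes a subunit of the general transcription factor TFIID, holds 27.

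No wild-type peak was listed in PCDHA, PCDHB or PCDHG. The exact Poisson 95% interval of each count of 0 reaches 3.69 peaks and covers counting error only. The upper bound is 16.3 peaks per Mb for the 227.0 kb of PCDHA, 18.7 per Mb for the 197.0 kb of PCDHB and 20.3 per Mb for the 182.0 kb of PCDHG. Over the 3 arrays together (606.0 kb) the upper bound is 6.09 peaks per Mb, while chromosome 5 as a whole carried 4.33 and all chromosomes 5.7. By length alone the count of 0 thus cannot be told apart from the average of the chromosome or of the list. No array can be ranked above another, since all 3 counts are 0.

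Stretches as long as one array were often without a peak elsewhere. Of 13220 windows of the length of PCDHA laid end to end over all chromosomes, 51.2% held no wild-type peak. The share was 54.4% of 15232 windows for the length of PCDHB and 55.9% of 16485 windows for that of PCDHG. For the whole region of 727.0 kb, 40.4% of 4143 windows held at most 1 peak, and on chromosome 5 the share was 43% of 249 windows. These windows include unassembled sequence, where no peak can be called.

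Set against genes and not against length, the arrays stood lower. The RefSeq table lists 53 protein-coding genes in them: 15 in PCDHA, 16 in PCDHB and 22 in PCDHG. They make up 5.86% of the 904 protein-coding genes of chromosome 5. That chromosome held 782 wild-type peaks, or 0.865 per gene (exact Poisson 95% interval 0.805 to 0.928). For the 53 protocadherin genes the 0 peaks inside the arrays allow at most 0.0696 peaks per gene by the same kind of interval. The upper bound was 0.246 for PCDHA, 0.231 for PCDHB and 0.168 for PCDHG, each below the lower bound of the chromosome. Peaks of the chromosome were counted, not assigned to genes, and genes in an array share an interval, so these intervals describe the counts and do not test them. In PCDHA and PCDHG each variable exon counts as a gene although its constant exons are shared. Peaks per gene are therefore not in like units for the arrays and the chromosome.

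The only member lay at chr5:140699610-140700786, between PCDHB and PCDHG. It began 72.6 kb after the end of the PCDHB interval and ended 9.21 kb before the start of the PCDHG interval. In the gene order of the RefSeq table, 2 protein-coding genes stand between PCDHB and PCDHG, namely SLC25A2, a mitochondrial carrier of the ornithine transporter group, and TAF7. No protein-coding gene stands between PCDHA and PCDHB. The peak was not assigned to either gene, because no hg19 annotation was used here.

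This peak covered 1177 bp, and its score was 377.83, the authors' deposited value. Its score was above the median of the list (223.42), as by definition were 50.0% of all wild-type peaks, and 28.2% of the list scored as high or higher. Its width was near the list median of 1116 bp, and 45.5% of the list was as wide or wider. The member was thus an ordinary peak of the list in width and lay in the upper part of it by score.

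**Figure D1:**
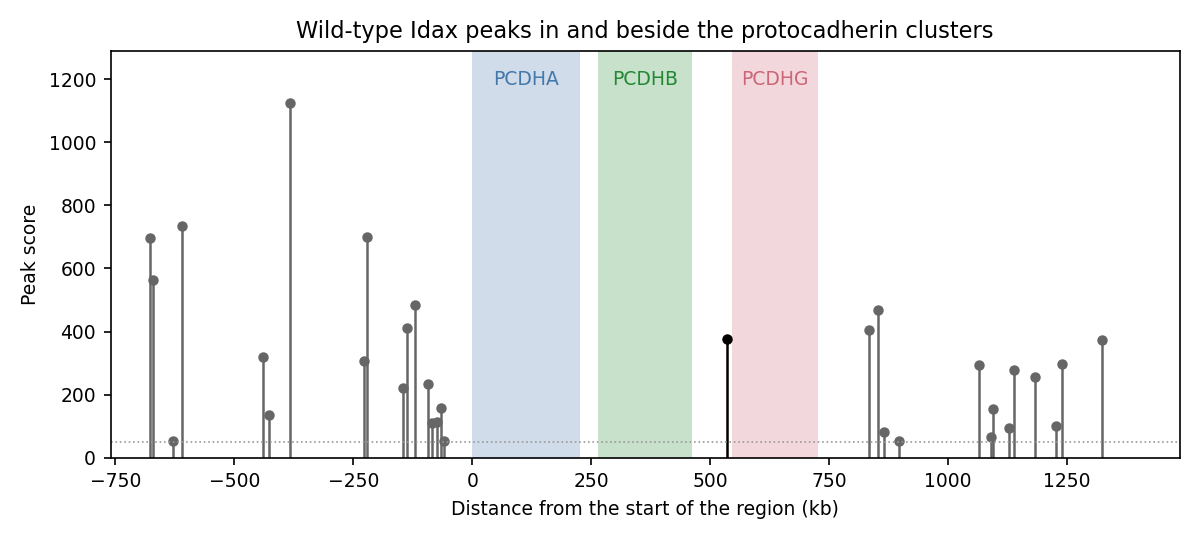
Score of each wild-type peak (vertical axis) against the distance of its midpoint from the start of the protocadherin region in kb (horizontal axis), with the 3 array intervals shaded, the member in black, peaks beside the region in grey and a dotted line at the lowest score of the list (50.01). The shaded arrays hold 0 peaks, 1 peak stands between PCDHB and PCDHG, and 17 and 13 peaks stand in the stretches before and after the region.

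The stretches on both sides of the locus were rich in peaks. The 727.0 kb before it held 17 wild-type peaks, or 23.4 per Mb (exact Poisson 95% interval 13.6 to 37.4). The 727.0 kb after it held 13, or 17.9 per Mb (9.52 to 30.6). The region itself held 1, or 1.38 per Mb (0.0348 to 7.66), and its interval does not reach the lower bound of either side. This holds for the full list only. With a minimum score of 100 the side after the region fell to 12.4 per Mb, and no interval was computed at that setting. Both sides also lay above the average of chromosome 5 (4.03 to 4.65 per Mb). The 2 sides were looked at after the count in the region was known.

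Peaks beside the region ranged from some of the weakest of the list to strong ones. Before it, scores ran from 52.80 to 1123.29 with a median of 308.4, and after it from 54.66 to 469.51 with a median of 256.4. Scores at or above the list median were found for 10 of the 17 peaks before and 7 of the 13 after. The strongest of them lay at chr5:139779925-139782252, covered 2328 bp and was matched or exceeded in score by 1.55% of the list. The nearest before PCDHA, at chr5:140105084-140106097, scored 52.90, close to the lowest score in the list (50.01). The nearest after PCDHG, at chr5:140997924-140999191, scored 405.96, and the next, at chr5:141015921-141017896, scored 469.51. In the gene order of the table HARS1, HARS2 and ZMAT2 stand just before PCDHA1, and DIAPH1, HDAC3 and RELL2 just after PCDHG. HARS1 and HARS2 are histidyl-tRNA synthetases, DIAPH1 is an actin-nucleating formin and HDAC3 a histone deacetylase, and no peak was assigned to them.

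**Figure D2:**
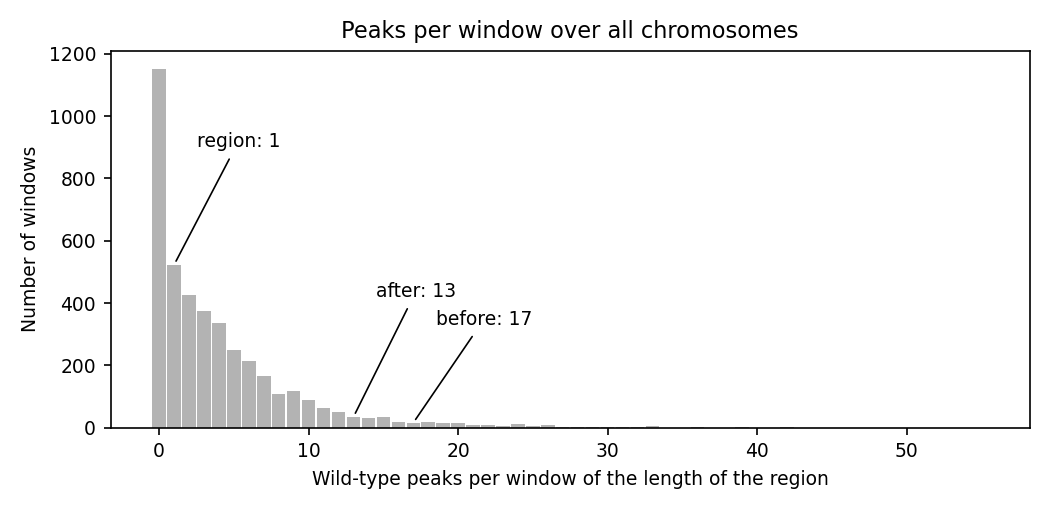
Number of windows (vertical axis) that hold a given number of wild-type peaks (horizontal axis) when windows of 727.0 kb are laid end to end over all chromosomes. The marks show the protocadherin region with 1 peak, where many windows lie, and the stretches before and after it with 17 and 13 peaks, in the thin upper part of the distribution.

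The peak-free stretches around the member held all of the arrays. From the last peak before PCDHA to the member, 593.5 kb carried no listed peak, and this stretch covers PCDHA and PCDHB whole. From the member to the first peak after PCDHG, 297.1 kb carried none, and this stretch covers PCDHG whole. Neighbouring wild-type peaks were a median of 52.6 kb apart over the list (quartiles 15.1 and 145.1 kb) and 77.1 kb apart on chromosome 5. The first stretch ranked number 69 of 781 on chromosome 5, and 5.74% of the 17065 stretches of the list were as long or longer. The second ranked number 146, and 12.2% of the list's stretches were as long or longer. These shares count each stretch once whatever its length, while a place chosen by position falls more often in a long stretch. They therefore do not measure how unusual the locus is.

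Few peaks stood as far from both neighbours as the member. Of 17041 wild-type peaks with a neighbour on each side, 592 (3.47%) had both at 297.1 kb or more, the member among them, and 47 of these were on chromosome 5. These 592 peaks had a median score of 190.8 (quartiles 101.3 and 368.8). The member scored above the upper quartile, and 145 of the 592 (24.5%) scored as high or higher. The distance was taken from the member itself and is a description.

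**Figure D3:**
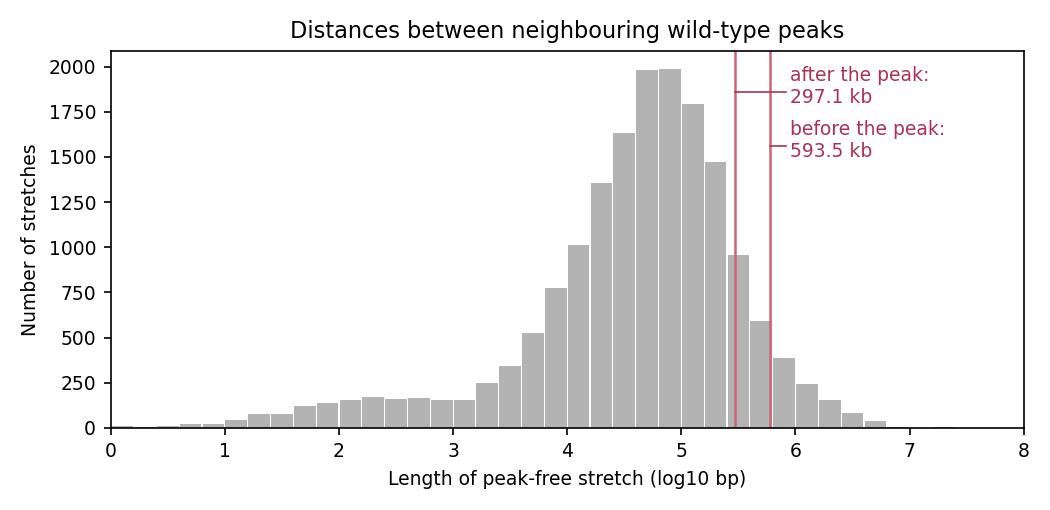
Number of peak-free stretches between neighbouring wild-type peaks (vertical axis) by their length (horizontal axis, log10 of bp), with lines at the stretches before (593.5 kb) and after (297.1 kb) the member. Both lines lie beyond the list's upper quartile of 145.1 kb.

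Few positions in the wild-type list had a nearly empty stretch of this length between such rich sides. Stretches with at most 1 peak were common by themselves (40.4% of windows laid end to end). The share below is of all positions, whether or not their sides were rich. The share among positions with rich sides was not computed. A window of 727.0 kb was moved over every chromosome in steps of 10 kb, and positions were kept where it held at most 1 peak while the windows on both sides held 13 or more each. Of 294359 positions, 130 (0.0442%) met this, and they formed 8 separate stretches on chromosomes 3, 5, 12, 14, 17 and 19. The protocadherin locus was 1 of the 8, with 17 positions between 140107002 and 140994002. The other on chromosome 5 had 2 positions. With windows laid end to end instead, 0 of the 1666 windows with at most 1 peak and a window on each side met the same limits. Whether a locus meets them, the protocadherin locus included, thus depends on where the windows are placed. The window length, the limit of 1 peak and the limit of 13 were all taken from the locus, the last after its sides were seen. That the locus meets them is therefore no finding. The number of other stretches describes the list under these limits and does not measure how rare the locus is.

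At their annotated starts, most windows of clustered protocadherin genes had fewer CG than the median window of the table. Promoter windows matched by symbol for 47 of the 53 genes, with 52 windows in all, since PCDHGB1, PCDHGB4, PCDHGB5, PCDHGB6 and PCDHGC4 have 2 each. PCDHA3, PCDHA13, PCDHB6, PCDHB11, PCDHGA12 and PCDHGC5 were not matched. The median was 7 CG per window in PCDHA (range 3 to 27), 7.5 in PCDHB (5 to 12) and 10 in PCDHG (2 to 25). All 35114 promoter windows of the table had a median of 14 (quartiles 4 and 28). They cover 27303 gene symbols and, unlike the protocadherin windows, were not limited to protein-coding genes. The comparisons with the median of 14 are therefore between unlike sets. Of the 52 windows, 10 (19.2%) reached the median of 14, against 50.3% of all windows, and 42 fell below it. None of the 14 windows of PCDHB reached it. The windows end 50 bases after the start and leave out most of each variable exon, so they say nothing of CG further into the exon. Methylation of these CG in the cells used is not known from the peak lists. Whether the number of CG goes with the presence of a peak was not tested.

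The windows with many CG were not spread evenly over the genes. All 5 windows of the 4 matched C-type genes reached the median of all windows, with 27 in PCDHAC1, 15 in PCDHAC2, 18 in PCDHGC3 and 23 and 24 in the 2 windows of PCDHGC4. The other 5 windows at or above the median were of PCDHGB4 (17 in its second window), PCDHGB5 (14 and 19) and PCDHGB6 (16 and 25). The first window of PCDHGB4 held 13. The 11 matched genes among PCDHGA1 to PCDHGA12 held 2 to 12, and the 11 among PCDHA1 to PCDHA13 held 3 to 9. These groupings were made after the values were seen and have no test.

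**Figure D4:**
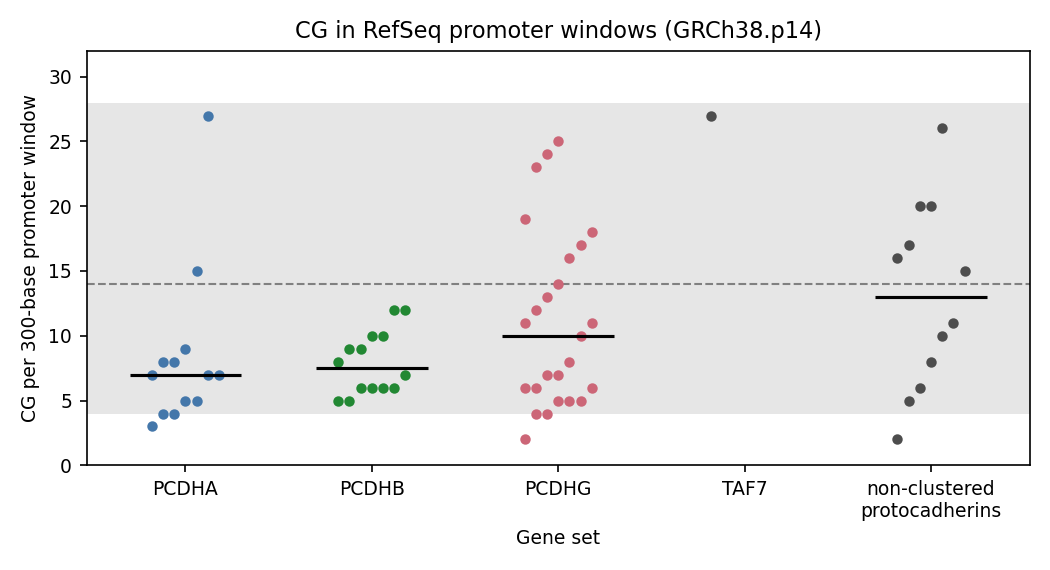
Number of CG in each 300-base promoter window (vertical axis) for PCDHA, PCDHB, PCDHG, TAF7 and non-clustered protocadherin genes (horizontal axis). Points are windows, black bars are medians, and the dashed line and grey band show the median of 14 and the quartiles 4 and 28 of all windows of the table, so that most points of the 3 arrays lie below the line.

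The arrays, whose median CG numbers were low, also had a low median share of G and C letters. The relation was not computed window by window. The median share of G and C was 37.3% in PCDHA, 40.8% in PCDHB and 47.3% in PCDHG, against 58.7% over all windows. The ratio of observed to expected CG, which corrects for that share, had a median of 0.628 over the 52 windows and 0.579 over all windows. The 12 windows of 10 non-clustered protocadherin genes had a median of 13 CG and 56.8% G and C. Of these, PCDH1 held 6 CG at 58% G and C, and PCDH19 held 26 at 71%.

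The letters CGCT, the core of a conserved element described in clustered protocadherin promoters, were searched on both strands, so that AGCG counted too. They were found in 51 of the 52 windows (98.1%), against 70% of all windows of the table, although the protocadherin windows hold fewer CG. PCDHA9 was the exception. On the gene's own strand CGCT was found in 51 of 52 windows against 54.3% of all, and the last copy before the start began a median of 50 bases before it (81 in all windows that have one). CGCT contains a CG, so the counts overlap. The letters CCCTC, searched on both strands with GAGGG, were found in 30.8% of the windows (3 of 13 in PCDHA, 0 of 14 in PCDHB and 13 of 25 in PCDHG) against 71.2% of all. CCCTC is mostly C, and the median share of G and C was 40.7% in these windows against 58.7% in all. The CCCTC counts were not corrected for that share. Non-clustered protocadherins held CGCT on either strand in 10 of 12 windows and CCCTC in 10 of 12. These are matches of letters anywhere in a window and do not show that the whole conserved element is present. The windows were matched by symbol and not by the position of a peak.

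The mutant list held no peak in the region, nor any on chromosome 5. With 0 of 38 peaks, the exact Clopper-Pearson 95% interval of the share on chromosome 5 reaches 9.25%, which includes the 4.58% of the wild-type list. The short mutant list therefore cannot show whether the locus differs between the constructs. Score differences between the constructs have no value at this locus.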

How the data were processed

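Each list of the authors has 5 columns and no header, and the score in column 5 is the authors' deposited value, of unstated scale; the lowest scores are 50.01 (wild type) and 50.43 (mutant), so weaker signal is not listed. Bowtie 0.12.7, MACS 1.4.1 and build hg19 are named, per the submitters' processing notes; the pooling of replicates is not given in the sources used. Peak names are numbered without a break, from 1 to 17089 and from 1 to 38. Starts were converted from 0-based to 1-based. Read depth is unknown. Samples were grouped by the transfection label.

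Overlaps, peak-free stretches (end of a peak to the start of the next), windows (peaks by midpoint) and exact Poisson and Clopper-Pearson 95% intervals were computed with Python 3.11.15, numpy 2.4.6 and SciPy 1.17.1, and plots with matplotlib 3.10.9. Density over a chromosome used the span from its first to its last wild-type peak. The overlap, stretch and window counts were tested on 20 simulated lists, and planted values were recovered in 20. Gene names, gene order and promoter windows are from RefSeq tables of GRCh38.p14.

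The members and lists were chosen with earlier results of these data known. The naming rule covered every member, each array's extreme peaks (none exist) and the promoters with the most and the fewest CG; peaks beside the region and TAF7 were added after values were seen. The planned upper limit of 3 peaks for the mutant count was left out, because the list holds only scores above a minimum. Alternatives were a minimum score of 100, merging within 1 kb, midpoints, wider intervals and those named in the closing section.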

Additional observations from a re-analysis of the deposited data

How the results depend on the processing

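No paired analysis was possible because the lists carry no replicate numbers, and no replicate could be left out. Of 49 alternatives, 48 stayed within 1.5 times the value they bear on. The exception was PCDHG, whose count was 1 when its interval was widened by 10 kb on each side, because the peak between PCDHB and PCDHG lies 9.21 kb from it; PCDHA and PCDHB stayed at 0. The count of 0 in PCDHG thus depends on where the interval begins. Many of the 48 could not have moved, so their number does not measure how firm the results are. A minimum score, merging or midpoints cannot raise a count of 0 in an array, and the values per Mb repeat the counts. The count, score and width of the member were also bound to stay under these settings, given its score of 377.83 and its distant neighbours. With a minimum score of 100 the stretch before the member was 600.8 kb, and 45.6% of windows held at most 1 peak. Chosen after seeing the data, stretches of 500 kb gave 26 peaks per Mb before and 20 after the region, a minimum score of 100 gave 20.6 and 12.4, and the first window of each gene gave PCDHG a median of 7 CG. Spacing, width and score per array, their means, and density over the span of an array's peaks have no value with 0 peaks. A mutant count of 0 held within 1 Mb on either side, as it had to, since the mutant list has no peak on chromosome 5. Signal under the lowest listed score is not in the lists, so weak binding in the arrays was not detectable here.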

Other observations

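The other places where a window of 727.0 kb held at most 1 wild-type peak between windows of 13 or more, a limit set after the protocadherin locus was seen, are given as hg19 positions from the start of the first to the end of the last such window. Overlapping windows were joined, so the limit of 1 peak holds for each window and was not checked over the joined span. The longest runs were on chromosome 17 from 38627002 to 39704002 (36 positions of the window) and on chromosome 19 from 42907002 to 43974002 (35 positions). Chromosome 14 had one from 22027002 to 22944002 (20 positions) and chromosome 12 one from 55027002 to 55894002 (15 positions), and the first window of each held 0 peaks. Shorter runs were on chromosome 3 from 50657002 to 51414002 (4 positions), chromosome 5 from 132537002 to 133274002 (2 positions) and chromosome 12 from 124197002 to 124924002 (1 position). No gene was assigned to them.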
